A study of Mus musculus with 13 samples.

Results

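The family of miR-148 and miR-152 of the mouse has 3 members, miR-148a-3p, miR-148b-3p and miR-152-3p, and its levels were examined in vesicle small RNA from tumour cells and from plasma. The members were taken by name and are 3 of 1164 mature microRNAs (miRNAs) in the count table of tumour cell vesicles and 3 of 1354 in the plasma table. All 3 were counted in 12 of the 13 libraries, and 2 of them in C26-bearing replicate 6. Tumour microvesicles (TMVs) came from serum-free medium in which C26 cells, a colon adenocarcinoma line of the Balb/C mouse, had been kept for 48 h (3 libraries). Plasma vesicles came from Balb/C mice labelled cachectic, killed 14 days after 500000 C26 cells were injected under the skin of the back (C26-bearing, 6 libraries), and from Balb/C mice labelled healthy (control, 4 libraries). The labels do not state the age or sex of the mice, or what the controls received in place of cells. Control replicates 2 and 3 each carry a pair of numbers in their descriptions, 2 with 5 and 3 with 4, and control replicate 4 carries the number 6. The meaning of these numbers is not stated. C26 cells are 1 line, so TMV libraries stand for that line in culture and not for a tumour in a mouse. Medium and plasma were spun at rising speed and the final pellet was taken whole. No step selected vesicles by origin, so the RNA of a plasma pellet cannot be assigned to a cell type.

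A miRNA guides the Argonaute protein to messenger RNAs that pair with its seed, the short stretch behind its first base, and lowers their translation and stability. The members of this family share that seed and have been reported to repress Dnmt1, the maintenance DNA methyltransferase. miR-148a is abundant in liver, where it has been linked to the LDL receptor and the cholesterol exporter ABCA1, and it has been reported to promote the differentiation of muscle precursors. miR-152 and miR-148b are made from introns of Copz2 and Copz1, genes for zeta subunits of the COPI vesicle coat.

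The mature sequences are shown because the members can be told apart by few bases. They are from RefSeq (GRCm38.p6), 5′ to 3′, with bases 2 to 8, the seed, in capitals.
mmu-miR-148a-3p: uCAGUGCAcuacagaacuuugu
mmu-miR-148b-3p: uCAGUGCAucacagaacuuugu
mmu-miR-152-3p: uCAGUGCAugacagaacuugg
Among 1679 mature mouse miRNAs in that table these 3 and no others have this seed. Counted from 1 at the 5′ end of miR-148a-3p, miR-148b-3p differs over 22 bases by C9U and U10C. miR-152-3p differs from miR-148a-3p over the 21 shared positions by C9U, U10G and U20G, and from miR-148b-3p by C10G and U20G. The nearest other miRNA at matching positions from the 5′ end was miR-382-3p, with 13 of the 22 bases of miR-148a-3p. Every difference between the members therefore lies at bases 9 and 10 or at the 3′ end. No source used here says how reads that stop short of these bases or carry an error there were placed, so counts of the minor members are uncertain against miR-148a-3p.

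The precursor hairpins are shown with both mature arms in capitals, the 5p arm first, since the arms were counted apart.
Mir148a: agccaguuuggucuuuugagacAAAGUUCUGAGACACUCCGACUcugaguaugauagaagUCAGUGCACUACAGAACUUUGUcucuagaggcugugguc
Mir148b: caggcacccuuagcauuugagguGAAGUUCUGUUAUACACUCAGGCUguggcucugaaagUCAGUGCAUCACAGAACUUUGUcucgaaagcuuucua
Mir152: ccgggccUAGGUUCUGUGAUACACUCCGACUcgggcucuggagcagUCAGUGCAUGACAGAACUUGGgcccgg
In GRCm38, Mir148a lies at chr6:51269812-51269910 on the minus strand, outside annotated genes, and the nearest protein-coding gene, Nfe2l3, is 162760 bases away. Mir148b lies at chr15:103285125-103285221 on the plus strand in an intron of Copz1. Mir152 lies at chr11:96850393-96850465 on the plus strand in an intron of Copz2. No source used here names the build the counts were made on.

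The values are raw counts per mature miRNA. Libraries held 112357 to 170571 counts in TMVs and 9828 to 76376 in C26-bearing plasma, against 7962 to 131385 in control plasma. miR-5119 held over 20% of the counts in 5 plasma libraries, C26-bearing replicates 1 to 4 (26.6% to 58.7%) and control replicate 4 (46.1%), and at most 2.55% in the other 5. Shares are therefore given of all counts and of the counts without miR-5119. The libraries rich in miR-5119 (over 20%) and poor in it (up to 20%) fall unevenly on the groups, with 4 C26-bearing against 1 control among the rich and 2 against 3 among the poor. Nothing states that libraries came from separate animals or cultures, so each p-value rests on the spread between libraries, which may be technical.

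The family held a larger share of counts in control plasma than in TMVs, and in every library most of it was miR-148a-3p. With miR-5119 left out of the totals, the family held 5.01% ± 0.801 of counts in TMVs (SD, n = 3) and 9.61% ± 5.50 in C26-bearing plasma (SD, n = 6), against 12.96% ± 1.84 in control plasma (SD, n = 4). With all counts as the total these shares were 5.01% ± 0.801 in TMVs and 6.42% ± 3.85 in C26-bearing plasma, against 11.1% ± 2.04 in control plasma. By library and without miR-5119, the family held 4.44%, 5.93% and 4.67% in TMVs, a narrow range below every control. It held 18.8%, 11.9%, 10.3%, 8.21%, 5.14% and 3.35% in C26-bearing replicates 1 to 6, against 11.3%, 13.3%, 11.8% and 15.4% in control replicates 1 to 4. The C26-bearing libraries thus spread on both sides of the controls, with 1 above, 1 among and 4 below them.

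miR-148a-3p was the 4th to 8th most counted miRNA in TMVs and the 2nd to 4th in every plasma library. Its counts were 5218, 5539 and 6280 in TMVs and 2618, 5416, 2734, 469, 1361 and 1074 across the 6 C26-bearing replicates in order, against 14117, 7283, 15261 and 660 in control replicates 1 to 4. As a share without miR-5119 it stood at 3.56%, 4.93% and 3.68% in TMVs. The same share was 18.5%, 11.5%, 10.0%, 8.11%, 5.02% and 3.34% in C26-bearing plasma, against 11.2%, 13.2%, 11.7% and 15.4% in control plasma. TMVs lay below all 4 controls, with a mean 0.316 times that of control plasma, while C26-bearing plasma overlapped both.

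miR-148b-3p was rare in all 3 materials and no pair of groups was separated. Its counts were 74, 101 and 175 in TMVs and 23, 48, 44, 4, 19 and 0 across the 6 C26-bearing replicates in order, against 47, 52, 73 and 1 in control replicates 1 to 4. Without miR-5119 its mean share was 0.0810% ± 0.0272 in TMVs and 0.0941% ± 0.0621 in C26-bearing plasma, against 0.0526% ± 0.0306 in control plasma (SD, n = 3, 6 and 4). The 0 in C26-bearing replicate 6, taken as up to 3 counts, allows a share of up to 0.00934%, which is below the value of every other library. The single count of control replicate 4 stood for 0.0233%, with a 95% Wilson interval from 0.00411% to 0.132% that covers counting error only.

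miR-152-3p was the member that set TMVs apart. Its counts were 1215, 1021 and 1510 in TMVs and 25, 110, 37, 2, 14 and 1 across the 6 C26-bearing replicates in order, against 79, 10, 107 and 1 in control replicates 1 to 4. Without miR-5119 it held 0.830%, 0.909% and 0.885% of counts in TMVs. In plasma it held 0.176%, 0.234%, 0.136%, 0.0346%, 0.0516% and 0.00311% in C26-bearing replicates 1 to 6, against 0.0628%, 0.0181%, 0.0820% and 0.0233% in control replicates 1 to 4. Every TMV library lay above every plasma library, while C26-bearing and control plasma overlapped.

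**Figure D1:**
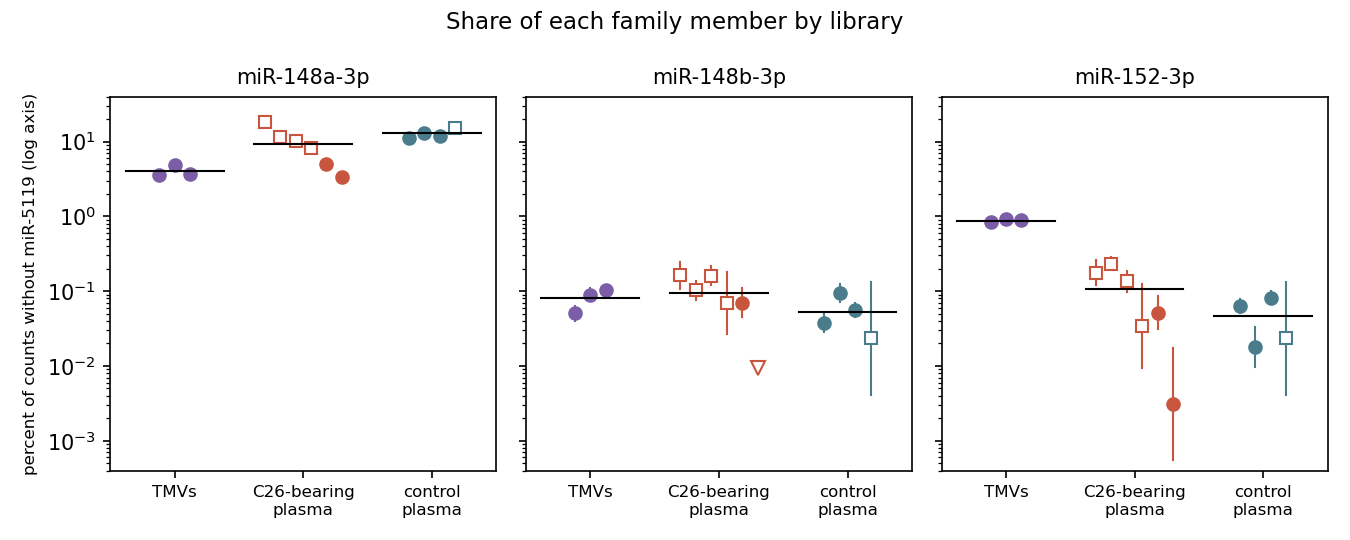
Share of each member in every library, as a percent of counts without miR-5119 on a log axis. Each point is 1 library with its 95% Wilson interval, open squares are libraries with over 20% miR-5119, the open triangle is a count of 0 drawn at the share that 3 counts would give, and bars are group means (counts of 0 included). miR-152-3p lies at 0.830% to 0.909% in TMVs and at most 0.234% in plasma.

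The size of the miR-152-3p difference was set against all 95 miRNAs that were in the plasma test and had at least 10 counts in each TMV library. The mean share of miR-152-3p was 18.8 times that of control plasma in TMVs, the 3rd highest of the 95 ratios, and 8.26 times that of C26-bearing plasma, the 7th highest. miR-148b-3p stood 50th with a ratio of 1.54 to control plasma, and miR-148a-3p 78th. Non-overlap between TMVs and control plasma was common, with 43.2% of the 95 miRNAs higher and 16.8% lower in TMVs. Those lower include miR-5119 itself, as its counts over a total that leaves it out. Between TMVs and C26-bearing plasma 28.4% were higher and 12.6% lower in TMVs. The minimum in TMVs leaves out 32 miRNAs that were low there, and 3 more were not in the TMV table. An alternative added after seeing the data took the 127 miRNAs of the plasma test that were in both tables. Of these, 32.3% were higher and 27.6% lower in TMVs than in control plasma. There miR-152-3p stayed 3rd and miR-148b-3p 50th, and miR-148a-3p stood 79th. The tables share 1066 miRNAs, and those with too few plasma counts to test were not ranked. miRNAs high in TMVs and rare in plasma are thus left out, so these places hold only among tested miRNAs. The 2 materials were counted in separate tables and prepared from different fluids, so their difference cannot be told apart from one between preparations or runs, and it was not tested.

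**Figure D2:**
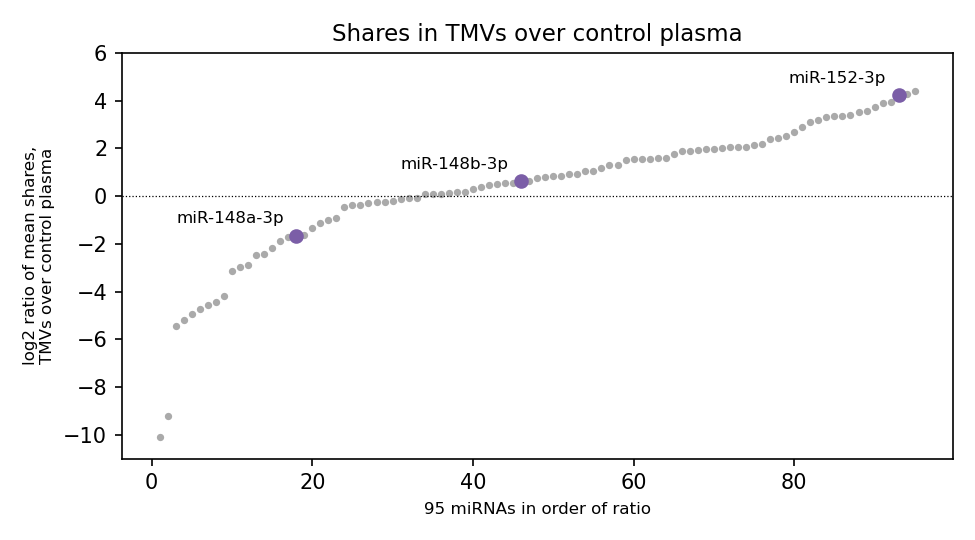
Log2 ratio of mean shares without miR-5119, TMVs over control plasma, for 95 miRNAs of the plasma test in rising order. The lowest point, at -10.1, is miR-5119 itself, as its counts over a total that leaves it out. Each grey point is 1 miRNA and the purple points are the family members: miR-152-3p is 3rd from the top and miR-148a-3p lies below 0.

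Within the family the balance of members differed between the materials. miR-148a-3p made up 80.7% ± 2.21 of family counts in TMVs (SD, n = 3) and 98.1% ± 1.07 in C26-bearing plasma (SD, n = 6), against 99.2% ± 0.361 in control plasma (SD, n = 4). miR-152-3p made up 18.7%, 15.3% and 18.96% in TMVs, and its highest values were 1.97% in C26-bearing plasma, against 0.693% in control plasma. miR-148b-3p made up 1.14%, 1.52% and 2.20% in TMVs, up to 1.56% in C26-bearing plasma and up to 0.708% in control plasma. For each 100 counts of miR-148a-3p, TMVs held 23.3, 18.4 and 24.0 counts of miR-152-3p and 1.42, 1.82 and 2.79 of miR-148b-3p. These ratios are taken within a library and do not depend on miR-5119 or on scaling.

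Set against control plasma, the mean log2 ratio of miR-152-3p to miR-148a-3p was -2.20 ± 0.209 in TMVs (SD, n = 3) and -8.21 ± 1.08 in controls (SD, n = 4), a difference of 6.01 with no overlap. That difference was the 3rd highest among the ratios of 94 miRNAs to miR-148a-3p, whose median difference was 2.63. All 94 were in the plasma test and had the same minimum in TMVs. The mean log2 ratio of miR-148b-3p was -5.69 ± 0.490 in TMVs and -7.95 ± 0.712 in controls, a difference of 2.27 with no overlap, and it stood 53rd. Of the 94 ratios, 75.5% were higher and 8.51% lower in TMVs than in control plasma without overlap, and miR-148a-3p itself held a smaller share of TMV counts. Against C26-bearing plasma the difference was 4.81 for miR-152-3p with no overlap, the 5th highest, and 1.55 for miR-148b-3p with overlap, and 41.5% of the ratios were higher and 8.51% lower in TMVs without overlap. Among these ratios, which leave out miRNAs too rare in plasma to test, miR-148b-3p stood near the middle and miR-152-3p near the top.

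**Figure D3:**
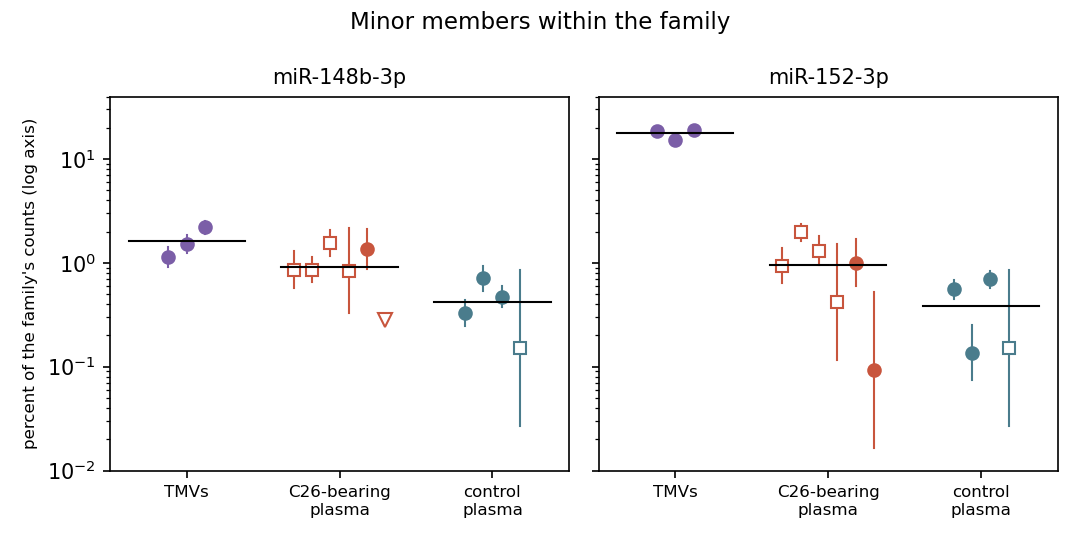
miR-148b-3p and miR-152-3p as a percent of the family's counts in each library, on a log axis. Points, 95% Wilson intervals, open squares (over 20% miR-5119) and the open triangle (a count of 0 drawn at 3 counts) stand for single libraries and bars for group means. miR-152-3p is 15.3% to 18.96% of the family in TMVs and at most 1.97% in plasma.

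Plasma of C26-bearing mice was compared with control plasma in 1 test over the whole plasma table, with raw counts scaled by TMM factors (trimmed mean of M-values, which set library sizes from most miRNAs). Of 130 miRNAs with enough counts to test, 0 (0%) passed edgeR's quasi-likelihood test at a Benjamini-Hochberg adjusted p of 0.05, and so did 0 of the 3 members. An unadjusted p under 0.05 was found for 15 (11.5%), none of them a member. DESeq2 called 4 (3.08%) and limma voom 17 (13.1%) of the 130, in each case no member. The log2 fold change, C26-bearing over control, was below 0 for 1 member and above 0 for 2, and 66 of all 130 were above 0 with a median of 0.0057.

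miR-148a-3p had the lower mean in C26-bearing plasma. Its TMM-scaled CPM (counts relative to its TMM-adjusted total) were 134806, 65184, 62403, 45829, 41252 and 36100 in C26-bearing replicates 1 to 6, against 119156, 107821, 82725 and 109536 in control replicates 1 to 4. Replicate 1 of the C26-bearing mice lay above all controls and the other 5 below all of them, so the groups overlapped through 1 library. Of the 130 miRNAs, 0.769% were higher and 0.769% lower in C26-bearing plasma with no overlap. The log2 fold change of miR-148a-3p was -0.71 (SE 0.509), with a 95% normal interval from -1.70 to 0.29. edgeR's adjusted p was 0.651. Without C26-bearing replicate 1 it stood at -1.07 (SE 0.511, edgeR adjusted p = 0.429).

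The direction for miR-148a-3p was the same among rich and poor libraries and under all 27 alternatives run, with values from -1.47 to -0.35 and edgeR, DESeq2 or limma adjusted p from 0.310 to 0.998. The 5 poor libraries alone gave a log2 fold change of -1.47 (SE 0.562) with an edgeR adjusted p of 0.388. There the C26-bearing libraries (41252 and 36100 CPM) lay below all 3 controls, as 11.5% of the 130 miRNAs did. Within the 5 rich libraries it was -0.35 (SE 0.846, edgeR adjusted p = 0.986), with a single control that was assumed to vary like the other group. As shares of all counts, 5 of 6 C26-bearing libraries lay below all controls and 1 above. Without miR-5119, 4 lay below and replicate 2, at 11.5%, lay among them. The mean share in C26-bearing plasma was 0.570 times that in control plasma with all counts and 0.732 times without miR-5119.

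**Figure D4:**
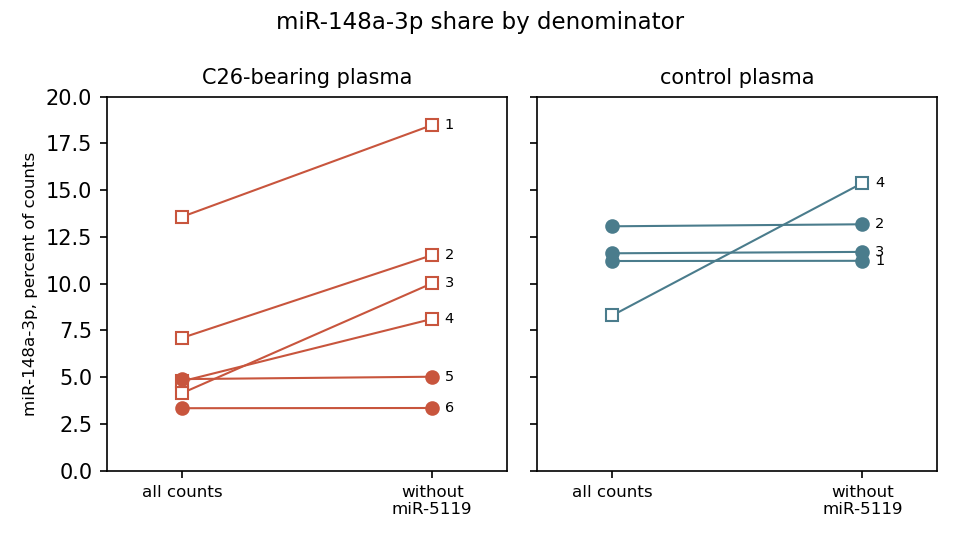
miR-148a-3p as a percent of all counts and of counts without miR-5119, with 1 line per plasma library and its replicate number. Open squares are libraries with over 20% miR-5119. Leaving it out lifts C26-bearing replicates 1 to 4 and control replicate 4 (8.29% to 15.4%) and hardly moves the others.

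miR-148b-3p and miR-152-3p had higher means in C26-bearing plasma, with an error wider than the difference. miR-148b-3p averaged 622 ± 426 TMM-scaled CPM in C26-bearing plasma (SD, n = 6), against 432 ± 250.0 in control plasma (SD, n = 4), and 2 C26-bearing libraries lay above all controls and 1 below. Its log2 fold change stood at 0.47 (SE 0.884, edgeR adjusted p = 0.823), with an interval from -1.26 to 2.20. miR-152-3p averaged 685 ± 553 TMM-scaled CPM in C26-bearing plasma, against 390.2 ± 272 in control plasma, with 3 C26-bearing libraries above all controls and 1 below. Its log2 fold change stood at 0.76 (SE 0.865, edgeR adjusted p = 0.761), with an interval from -0.94 to 2.45. Leaving out 1 library took miR-148b-3p to 0.16 (without C26-bearing replicate 1) and miR-152-3p to 0.33 (without control replicate 2).

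Both minor members had values below 0 among the poor libraries and above 0 among the rich. In the poor libraries alone, log2 fold changes of -0.88 (SE 1.24) for miR-148b-3p and -1.05 (SE 1.11) for miR-152-3p were found. Of the 2 poor C26-bearing libraries, replicate 6 had 0 counts of miR-148b-3p and 1 of miR-152-3p. Replicate 5 lay among the 3 poor controls, with 576 CPM against 397, 769.8 and 396 for miR-148b-3p and 424 against 667, 148.05 and 580.0 for miR-152-3p. Within the rich libraries they were 2.34 (SE 1.33) for miR-148b-3p and 2.55 (SE 1.57) for miR-152-3p, against a control library that held 1 count of each. With rich or poor as a term in the edgeR fit the values were -0.066 (SE 1.00) for miR-148b-3p and -0.13 (SE 1.01) for miR-152-3p. The difference between rich and poor libraries was not tested.

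**Figure D5:**
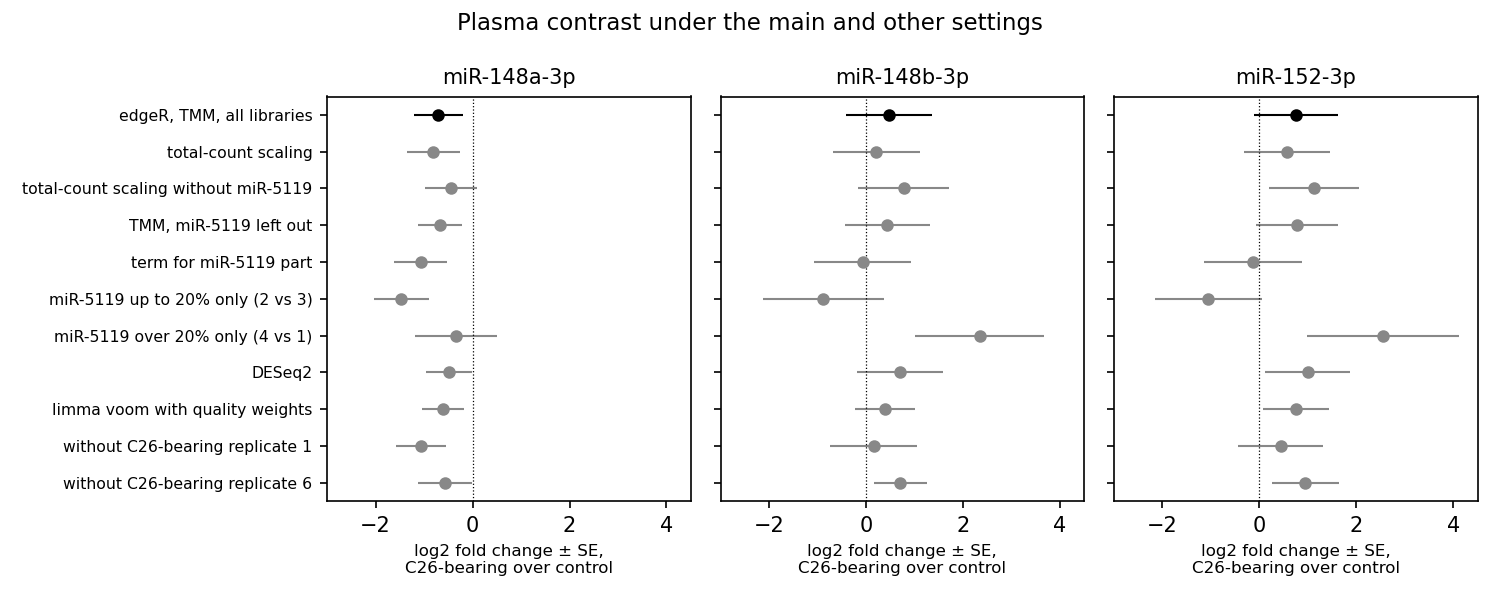
Log2 fold change ± SE, C26-bearing over control plasma, of each member under the main edgeR fit (black, 6 against 4 libraries) and 10 alternatives (grey). miR-148a-3p stays below 0 in all of them, from -1.47 to -0.35. miR-148b-3p and miR-152-3p change sign between libraries poor and rich in miR-5119.

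Ratios within a library compare the members without scaling. For each 100 counts of miR-148a-3p there were 0.879, 0.886, 1.61, 0.853 and 1.40 counts of miR-148b-3p in C26-bearing replicates 1 to 5 and 0 in replicate 6, which allows up to 0.279. In control replicates 1 to 4 there were 0.333, 0.714, 0.478 and 0.152. Thus C26-bearing replicates 1 to 5 each exceeded all 4 controls, while replicate 6 lay below controls 1 to 3. The mean log2 ratio, with 0.5 added to each count, was -7.24 ± 1.91 in C26-bearing plasma (SD, n = 6), against -7.95 ± 0.712 in control plasma (SD, n = 4).

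The difference in that ratio was 0.71, and a two-sided exact permutation test over 210 splits gave p = 0.548 (0.736 adjusted over the ratios of all 129 other miRNAs to miR-148a-3p). None of those 129 ratios passed (0%), 5.43% did not overlap between the groups, and 13.2% had an unadjusted exact permutation p under 0.05 with a higher ratio in C26-bearing plasma and 0.775% with a lower one. The median difference of the 129 was 0.89, above that of miR-148b-3p. Leaving out 1 library at a time gave differences from 0.44 to 1.48 (adjusted exact permutation p from 0.186 to 0.967). The highest was without C26-bearing replicate 6, where the groups did not overlap (exact permutation p = 0.00794, the smallest its 126 splits allow, adjusted 0.186). That replicate was the only C26-bearing library not above all controls. Its removal thus fixed this p in advance, and the p is no support for a difference. Without that library, 6.98% of the 129 ratios were higher in C26-bearing plasma with no overlap and 0.775% were lower. Within the libraries poor in miR-5119, which include replicate 6, the difference was -0.92.

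For miR-152-3p there were 0.955, 2.03, 1.35, 0.426, 1.03 and 0.0931 counts for each 100 of miR-148a-3p in C26-bearing replicates 1 to 6, against 0.560, 0.137, 0.701 and 0.152 in control replicates 1 to 4. C26-bearing replicates 1, 2, 3 and 5 lay above all controls. The difference in mean log2 ratio was 1.20 (exact permutation p = 0.190, adjusted 0.447), and 0.0012 within the libraries poor in miR-5119. miR-152-3p and miR-148b-3p were counted about equally in plasma, with a mean log2 ratio of miR-152-3p to miR-148b-3p of 0.23 ± 0.958 in C26-bearing plasma (SD, n = 6), against -0.26 ± 1.41 in control plasma (SD, n = 4). That difference was 0.49 (exact permutation p = 0.543, adjusted 1). In TMVs the same log2 ratio was 3.49 ± 0.481 (SD, n = 3).

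The 5p arms, which are cut from the same hairpins and are usually degraded, were rare. miR-148a-5p was 0.0411% of the counts of both Mir148a arms in TMVs (7 counts) and 0.0804% in C26-bearing plasma (11 counts), against 0.104% in control plasma (39 counts). miR-152-5p was 0.399% of its pair in TMVs (15 counts) and 0.526% in C26-bearing plasma (1 count), against 0.505% in control plasma (1 count). miR-148b-5p took the largest part of its pair among the 3 hairpins in each material, 1.13% in TMVs (4 of its counts) and 2.82% in C26-bearing plasma (4), against 12.2% in control plasma (24). It had 1, 1, 1, 0, 1 and 0 counts in C26-bearing replicates 1 to 6, against 3, 8, 13 and 0 in the control replicates in order. The Wilson intervals of the pooled shares ran from 1.101% to 7.02% in C26-bearing plasma and from 8.33% to 17.5% in control plasma and cover counting error only. No 5p arm had enough counts for the plasma test.

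Likeness of pattern was measured as the SD, over the 10 plasma libraries, of the log2 ratio of an miRNA to a member. A low SD means that this ratio varied little, which does not show that the 2 rose and fell together. For miR-148a-3p the lowest SDs of 129 were those of miR-27b-3p (0.512), miR-30a-3p (0.594), miR-200a-3p (0.607), miR-146b-5p (0.617) and miR-378a-3p (0.632), against a median of 1.40. miR-152-3p (1.35) stood 63rd and miR-148b-3p (1.53) 70th, so the members with its seed were not those nearest to it. For miR-148b-3p the lowest were miR-425-5p (0.828), miR-1839-5p (1.08), miR-152-3p (1.11), miR-30e-5p (1.23) and miR-143-3p (1.34), against a median of 2.07. For miR-152-3p they were miR-143-3p (0.902), miR-199a-3p (1.02), miR-30e-5p (1.04), miR-29a-3p (1.06) and miR-221-3p (1.09), against 1.80. miR-143-3p, known from smooth muscle and fibroblasts, and miR-30e-5p were among the nearest 5 of both minor members. Here miR-143-3p was also abundant in TMVs, with a mean of 4.21% of counts without miR-5119, against 1.45% in control plasma. SDs against a rare miRNA also hold its counting error. In C26-bearing replicate 6, miR-148b-3p, miR-425-5p and miR-1839-5p were all at 0 and miR-152-3p had 1 count. Their ratios to miR-148b-3p in that library therefore rest largely on the 0.5 added to each count.

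miRNAs reported to target DNA methyltransferases or linked to lipid handling, like the family, were listed and read from the same fit. Of 6 in the methyltransferase list 3 were tested, all above 0 and none called, with a median log2 fold change of 0.37 against 0.0057 for all 130. They included miR-126a-3p at 0.37 (SE 0.374) and miR-185-5p at 0.64 (SE 0.689), and both were below 0 within the libraries poor in miR-5119, at -0.053 and -0.26. Of 7 in the lipid list 4 were tested, all below 0 and none called, with a median of -0.91. Among them were miR-122-5p, the main miRNA of hepatocytes, at -1.92 (SE 0.819, edgeR adjusted p = 0.395) and miR-144-3p, found in red cells, at -1.13 (SE 0.539, edgeR adjusted p = 0.400). miR-27b-3p, the nearest to miR-148a-3p in pattern, had -0.022 (SE 0.381).

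Lists of miRNAs that mark other sources of plasma RNA were read beside miR-148a-3p. The liver list, with miR-122-5p and miR-192-5p, summed to 0.851% to 14.0% of counts without miR-5119 in C26-bearing plasma, against 9.25% to 28.3% in control plasma. All 3 liver miRNAs tested were below 0 and none was called, miR-192-5p at -0.98 (SE 0.604). Of the listed miR-802 arms, miR-802-5p had 1 count in C26-bearing plasma, against 0 in control plasma, and miR-802-3p was at 0 in both. The red cell list summed to 4.79% to 52.9% in C26-bearing plasma, against 11.2% to 31.5% in control plasma, highest in C26-bearing replicate 6, where miR-148a-3p was lowest, and lowest in replicate 1, where it was highest. Both are shares of 1 total. With miR-486a-5p and miR-122-5p also left out of the total, miR-148a-3p held 7.65% in replicate 6, and the lowest share was 6.41% in replicate 5. Of its 5 tested members 2 were above 0 and 3 below, with miR-16-5p at 1.30 (SE 0.901), or 0.62 without C26-bearing replicate 3, and none was called. The part of liver or red cell RNA in the miR-148a-3p values was not tested, and fewer vesicles of a source and less RNA in each cannot be told apart.

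The other lists held smaller shares of the plasma counts. The white blood cell list summed to 0.352% to 1.77% in C26-bearing plasma, against 0.576% to 1.63% in control plasma, with 5 of 6 tested members above 0, among them miR-142a-3p at 1.98 (SE 0.914) and, below 0, miR-146a-5p at -1.18 (SE 0.600), or -0.38 without control replicate 4. The epithelial list summed to 0.310% to 1.28% (mean 0.616%) in C26-bearing plasma, against 0.301% to 0.642% (mean 0.478%) in control plasma. Of its 3 tested members 1 was above 0, miR-203-3p at 0.22 (SE 0.530), with miR-200a-3p at -1.09 (SE 0.508) and miR-205-5p at -0.46 (SE 0.617). Summed counts of untested members, C26-bearing against control, were 60 against 32 for miR-200c-3p and 49 against 54 for miR-200b-3p. They were 0 against 7 for miR-141-3p and 4 against 4 for miR-429-3p. The pancreas list summed to 0% to 0.103% in C26-bearing plasma, against 0.0699% to 0.352% in control plasma, and its 1 tested member, miR-375-3p, had -2.54 (SE 0.779). Most of the control sum was miR-375-3p, with 780 counts, against 60 in C26-bearing plasma. The untested miR-217-5p went the other way, with 33 counts in C26-bearing plasma, against 18 in control plasma. miR-216a-5p had 1 against 0 and miR-216b-5p had 2 against 11. None of the tested miRNAs named here was called by edgeR (adjusted p 0.304 to 0.842), while miR-375-3p passed with DESeq2 (adjusted p = 0.0129) and limma voom (adjusted p = 0.00651). In TMVs the epithelial list held 0.00979% to 0.0123% of counts, nearly all of it miR-203-3p with 43 counts over the 3 libraries. miR-200b-3p had 3 counts and miR-200c-3p had 2, while miR-200a-3p, miR-141-3p, miR-429-3p and miR-205-5p were at 0. The labels call C26 cells a colon adenocarcinoma line.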

How the data were processed

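Small RNA libraries were made with the NEBNext kit and sequenced on a NextSeq500, per the labels' protocols. bcl2fastq and cutadapt 1.10 are named in the submitters' processing notes. The authors deposited raw counts per mature miRNA, in 1 table for TMVs and 1 for plasma. No source used here names the aligner, counting rule, annotation or build. All 13 count columns matched a sample and 0 were left unused.

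The 10 plasma libraries were fitted with edgeR 4.0.16 (R 4.3.3): a filter on low counts (minimum 10), TMM factors, a quasi-likelihood fit with robust estimation, and p-values adjusted by Benjamini-Hochberg over 130 miRNAs. Ratios within a library (0.5 added to each count) were tested by two-sided exact permutation over samples. Wilson intervals were computed with scipy 1.17.1. DESeq2 1.42.0 and limma 3.58.1 were alternatives. The edgeR fit was tested on simulated data: in 10 runs on the 130 miRNAs of the C26-bearing against control comparison, 92.8% of the 249 miRNAs changed by 4 on the log2 scale were called, with 12 false calls. The 249 are only the changed miRNAs that passed the filter on low counts, and all miRNAs were given the same spread. Changes as small as those of the members were not simulated, so the runs do not show whether these could be found. Counts of 7962 to 170571 per library limit the rare members, and intervals and limits for a count of 0 (3 counts) cover counting error only. TMVs were set against plasma by shares and ratios with no test.

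The named miRNAs were the members and their 5p arms, miRNAs with the same seed, for each member the 5 nearest in pattern, the 2 with the smallest edgeR p in each list, and miR-5119. The miR-802 arms, miR-203-3p, miR-141-3p, miR-429-3p, miR-200b-3p, miR-200c-3p, miR-216a-5p, miR-216b-5p and miR-217-5p, all in the lists, were named after their values were seen. Members and lists were chosen with earlier results of these data known. Sequences are RefSeq's (GRCm38.p6), where 1168 of the 1354 plasma names and all 3 members matched by name. Gene context is from GENCODE M21.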

Additional observations from a re-analysis of the deposited data

Results flagged for a closer look

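Among the 28 sets of 4 to 10 values tested with Dixon's criterion, 2 held a library farther from the others than the 95% critical value, and chance alone flags about 1 in 20 sets. C26-bearing replicate 1 had 13.6% of all counts in miR-148a-3p, with a gap to the next library of 0.633 of the group's range (critical value 0.625). Leaving miR-5119 out of the total raises it to 18.5%, still the highest of the 6, but the criterion did not flag it there.

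C26-bearing replicate 6 had a log2 ratio of miR-148b-3p to miR-148a-3p of -11.07, with a gap of 0.832 of the range. It rests on a count of 0 for miR-148b-3p beside 1074 for miR-148a-3p.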

How the results depend on the processing

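miR-148a-3p kept its direction and its side of the threshold under all 27 alternatives. The other values that changed are these, and the cause was not tested. With a term for miR-5119-rich libraries or only poor libraries, the log2 fold change was -0.066 and -0.88 for miR-148b-3p and -0.13 and -1.05 for miR-152-3p, all below 0 against values above 0 in the edgeR fit. The 3 members summed gave -0.66 (SE 0.511) for the sum, which is mostly miR-148a-3p and gives no value for a minor member. In poor libraries the difference in the miR-148b-3p to miR-148a-3p ratio was -0.92. That of miR-152-3p to miR-148b-3p was -0.14 without both controls of paired numbers and ran from -0.20 (without control replicate 2) to 0.82 when 1 library was left out. The count of called miRNAs was 2 with the term, 1 in rich libraries only, 4 without a filter, 4 with DESeq2, 17 with limma voom and 0 to 1 without 1 library (1 without C26-bearing replicate 2 or 3). Without miR-486a-5p and miR-122-5p as well, the family share was 11.6% in C26-bearing and 19.9% in control plasma. Other lists' miRNAs changed sign in poor libraries (miR-16-5p -0.32, miR-205-5p 0.31, miR-126a-3p -0.053, miR-185-5p -0.26) or rich ones (miR-192-5p 0.37). miR-122-5p passed without a filter (edgeR adjusted p = 0.0103) and miR-146a-5p with the term (edgeR adjusted p = 0.0488). Taken as counts for each 100 of miR-148a-3p, a scale chosen after seeing the data, the differences were 0.518 for miR-148b-3p (exact permutation p = 0.124, adjusted 0.468) and 0.594 for miR-152-3p (exact permutation p = 0.152, adjusted 0.468). That scale gives no value for miR-152-3p over miR-148b-3p, which is 0 in 1 library. Correlations of same-numbered plasma libraries were -0.403, -0.340, -0.150 and 0.0794. Control replicate 4, the only control rich in miR-5119, had the highest correlation with each of C26-bearing replicates 1 to 4, which are also rich. Such correlations therefore cannot show whether libraries were paired. The same limit holds for the description numbers, where C26-bearing replicate 6 meets control replicate 4 (-0.462) and replicates 4 and 5 meet controls 3 (0.0092) and 2 (0.504). With the replicate block the values were -0.55 (SE 0.511), 0.90 (SE 0.671) and 1.31 (SE 0.762) for miR-148a-3p, miR-148b-3p and miR-152-3p, and 0 miRNAs were called. In that block C26-bearing replicates 5 and 6, those poor in miR-5119, have no control of the same number and add nothing to the contrast. A block by description number, added after seeing the data, gave -0.78, 0.079 and 0.58 in the same order and called 0.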
